A study of Saccharomyces cerevisiae with 10 samples.

Results

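Diploid budding yeast lacking SET3 was set against diploid budding yeast lacking HOS2, to measure how alike the transcript profiles of these deletions were once the deleted genes themselves were put aside. The members are the 2 set3 deletion libraries and the 2 hos2 deletion libraries, chosen by their genotype labels, so 4 of the 10 mRNA-seq libraries of the series. All 10 come from strain BY4743, a diploid made from auxotrophic laboratory haploids, grown in rich glucose medium (YPD) and taken in mid-logarithmic phase. The groups used here are the SET3 deletion diploid, the HOS2 deletion diploid, the SNT1 deletion diploid and the naive diploid that carries none of these deletions, with 2 replicates each. The remaining group, diploids in the heritable [ESI+] state, entered the fit to help estimate the spread between replicates. The labels do not say whether replicates were separate cultures or separate deletion isolates, so every p-value measures the spread between these libraries, which may be technical.

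Set3 and Hos2 are subunits of one assembly, the Set3 complex (Set3C). Set3 carries a PHD finger that binds methylated lysine 4 of histone H3, a mark that the COMPASS methyltransferase lays down over the starts of transcribed genes, and Hos2 is a histone deacetylase that the complex brings to such nucleosomes. Snt1, a SANT-domain protein, and Sif2 are core subunits, while Hos4, the NAD-dependent deacetylase Hst1 and the cyclophilin Cpr1 are further members. The complex is known for delaying or restraining the induction of genes when carbon source changes, often where overlapping noncoding transcription places the histone mark, and for holding back sporulation genes in diploids. Losing the subunit that reads the mark and losing the subunit that removes acetyl groups are therefore different lesions in the same assembly.

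The deposited values are estimated counts for 7218 targets, 92 of them ERCC spike-in RNAs, and 6390 genes passed the filter on low counts, 1391 of which share reads with other targets. The libraries differed in depth, with 80651761 and 8327735 estimated counts in set3 replicates 1 and 2, 65121814 and 19461552 in hos2, 22057002 and 24831560 in snt1, and 27318367 and 18274386 in naive. Levels are given as counts-per-million (CPM) over library sizes scaled by the trimmed mean of M values (TMM), and are not divided by gene length. They compare libraries for one gene and not genes with each other. Fold changes are log2 of set3 over hos2 with their standard error (SE), so a positive value is higher in set3, and a gene was called where the Benjamini-Hochberg adjusted p of edgeR's quasi-likelihood test was under 0.05.

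The windows below show the promoters of 3 genes that led the set3 against hos2 comparison in opposite directions. The window of 1 gene that was lower than naive in both deletions is shown too. Each is 300 bases long and begins 400 bases before the start codon, read 5′ to 3′ on the gene's strand from the R64 reference, and capitals mark a match, on either strand, to the motif named for it.
SIT1 (chrV:27257-27556, plus strand; TGCACCC, the core bound by the iron regulator Aft1): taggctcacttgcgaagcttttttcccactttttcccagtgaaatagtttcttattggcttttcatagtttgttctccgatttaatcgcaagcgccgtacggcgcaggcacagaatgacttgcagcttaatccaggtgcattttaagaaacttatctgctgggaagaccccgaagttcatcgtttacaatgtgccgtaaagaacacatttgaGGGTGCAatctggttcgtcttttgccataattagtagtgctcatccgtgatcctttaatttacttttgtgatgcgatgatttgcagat
ARG4 (chrVIII:141503-141802, minus strand; TGACTC, bound by the amino acid regulator Gcn4): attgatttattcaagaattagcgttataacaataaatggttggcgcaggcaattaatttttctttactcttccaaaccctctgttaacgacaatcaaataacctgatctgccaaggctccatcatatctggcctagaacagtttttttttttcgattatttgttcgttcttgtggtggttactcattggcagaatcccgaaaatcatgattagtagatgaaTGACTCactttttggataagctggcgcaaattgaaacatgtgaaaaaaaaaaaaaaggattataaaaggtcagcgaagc
PHO11 (chrI:225060-225359, plus strand; CACGTG, bound by the phosphate regulator Pho4 and by Cbf1): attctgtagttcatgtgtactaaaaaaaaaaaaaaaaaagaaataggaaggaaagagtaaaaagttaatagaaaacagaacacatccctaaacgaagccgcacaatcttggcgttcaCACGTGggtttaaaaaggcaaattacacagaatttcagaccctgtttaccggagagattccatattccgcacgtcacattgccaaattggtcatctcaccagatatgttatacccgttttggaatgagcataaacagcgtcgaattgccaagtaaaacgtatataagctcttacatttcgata
YKR075C (chrXI:580851-581150, minus strand; CCCCGC, bound by the glucose repressor Mig1): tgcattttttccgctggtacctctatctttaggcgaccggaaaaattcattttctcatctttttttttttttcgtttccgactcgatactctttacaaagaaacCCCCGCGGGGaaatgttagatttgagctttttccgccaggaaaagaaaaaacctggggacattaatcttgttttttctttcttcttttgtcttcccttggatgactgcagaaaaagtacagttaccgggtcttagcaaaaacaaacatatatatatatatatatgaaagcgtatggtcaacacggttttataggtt
The SIT1 window holds its motif on the reverse strand, and the YKR075C window holds CCCCGC once on each strand, the 2 copies overlapping. Of 5987 such windows in the genome, 1.45% hold TGCACCC, 8.47% hold TGACTC, 4.56% hold CACGTG and 3.84% hold CCCCGC. A match describes these letters and is not evidence of binding in these cells.

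Each deletion was visible at its own gene and not at the other. SET3 (YKR029C, on chromosome XI from 497578 to 499833) had 2 and 0 counts in the set3 libraries, or 0.028 and 0 CPM, against 7.77 and 6.69 CPM in the hos2 libraries. Its summed count in set3 was 0.328% of that in hos2 after scaling for library size, with an exact binomial 95% interval of 0.0396 to 1.19%. HOS2 (YGL194C, on chromosome VII from 140368 to 141726) had 7.38 and 7.83 CPM in set3, against 0.038 and 0 CPM in hos2, where 3 reads remained in replicate 1. The hos2 count was 0.407% of the set3 count, with an interval of 0.0837 to 1.20%. These intervals cover counting error only, since PCR copies are not independent molecules. The fitted log2 fold changes were -8.04 (SE 0.54) for SET3 and 7.86 (SE 0.54) for HOS2, each with an adjusted p of 1.725e-05 from edgeR's quasi-likelihood test. Their size depended on the libraries fitted, beyond what the SE covers. It was -11.12 for SET3 without set3 replicate 1 and 11.12 for HOS2 without hos2 replicate 1. SET3 and HOS2 were the 2 genes called of all 6390 (0.0313%).

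The remaining subunit genes had like levels in both deletions. SNT1 stood at 66.6 and 67.2 CPM in set3, against 55.9 and 63.5 CPM in hos2, with 34.4 and 39.3 CPM in naive, and its set3 over hos2 log2 fold change was 0.17 (SE 0.30). SIF2, whose product is a WD40 scaffold of the complex, had 13.3 and 12.4 CPM in set3, against 11.7 and 12.02 CPM in hos2. HOS4 had 25.9 and 25.4 CPM in set3, against 23.5 and 25.03 CPM in hos2. For SNT1, SIF2, HOS4 and HST1 the whole 95% interval of the difference lay within 2-fold either way. CPR1, which shares reads, had the widest one, from -0.31 to 1.13 on the log2 scale. The genes beside each deletion were read as a check on local effects. The 4 neighbours of SET3, BCH2, SAP190, GMH1 and SPO14, had log2 fold changes between -0.33 and -0.090, and all 4 intervals lay within 2-fold. Of the 3 neighbours of HOS2 with enough reads, GCN1 and IME4, which encodes the RNA methyltransferase of meiotic entry, had intervals within 2-fold. YGL194C-A, at 0.51 and 0.57 CPM in set3 and 1.29 and 1.09 CPM in hos2, was too low to bound, with a log2 fold change of -1.17 (SE 0.69).

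Of the 6388 genes other than SET3 and HOS2, 0 were called by edgeR, which is 0% of genes tested, and the smallest adjusted p was 0.478. At an unadjusted p under 0.05 there were 112 genes, 1.75% of those tested, with 36 higher in set3 (0.564%) and 76 lower (1.19%). DESeq2 on the same counts called 5 genes, ARG4, HXT7, SIT1, YHL050C and YRF1-6. Fitted on the set3 and hos2 libraries alone, edgeR called 3 of these, SIT1, YHL050C and YRF1-6. HXT7, YHL050C and YRF1-6 share reads with other targets. A p that misses the threshold does not show likeness, so the width of each difference was measured too. The 95% interval lay wholly within 2-fold for 4523 genes (70.8%). Among the 3670 genes of at least 10 CPM in the 4 libraries the share was 90.2% (3311 genes). Among the 1739 genes under 5 CPM it was 22.3% (388 genes). For most low genes the interval thus did not bound the difference within 2-fold. Genes of higher level with fitted values beyond 2-fold, such as SIT1 (-1.44), HXT7 (1.31) and SSA4 (1.32), were not called by edgeR on all 10 libraries. Within a stricter bound of 1.5-fold lay 1332 genes (20.9%). Fits without 1 library bounded 3215 to 3466 genes within 2-fold.

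The fitted differences were small for most genes. The median absolute log2 fold change was 0.16, and it was under 0.25 for 4421 genes (69.2%), under 0.5 for 5794 (90.7%) and under 1 for 6249 (97.8%). Higher and lower values were nearly balanced, with 3107 genes (48.6%) above 0. Of the 139 genes (2.18%) at or beyond a log2 fold change of 1 in either direction, 124 averaged under 5 CPM. The other 15 comprised 9 of the leading genes described below and 6 that were singled out after their values were seen. Of these 6, TAR1, a small reading frame lying antisense within the ribosomal DNA, had 22830 and 14860 CPM in set3 against 10930 and 7468 CPM in hos2. In snt1 it had 15080 and 14470 CPM, and in naive 15680 and 12340 CPM. The interval of its set3 over hos2 log2 fold change ran from 0.13 to 1.94. As strand is not stated, its reads may not be told apart from ribosomal RNA. FIT3, a cell wall mannoprotein that retains siderophore iron, had 866 and 730 CPM in set3, against 309 and 406 CPM in hos2, with 53.5 and 334 CPM in snt1 and 152 and 427 CPM in naive. Its log2 fold change of 1.16 had an interval from -0.76 to 3.08, and its values differed several-fold between the snt1 replicates. HYP2, the translation factor eIF-5A, shares reads with a near copy and was 0 and 265 CPM in set3, against 0 and 110 CPM in hos2, so its values split by replicate and not by deletion. The rest were the Ty retrotransposon frames YDR261C-D, YAR010C and YPR137C-A, with shared reads.

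**Figure D1:**
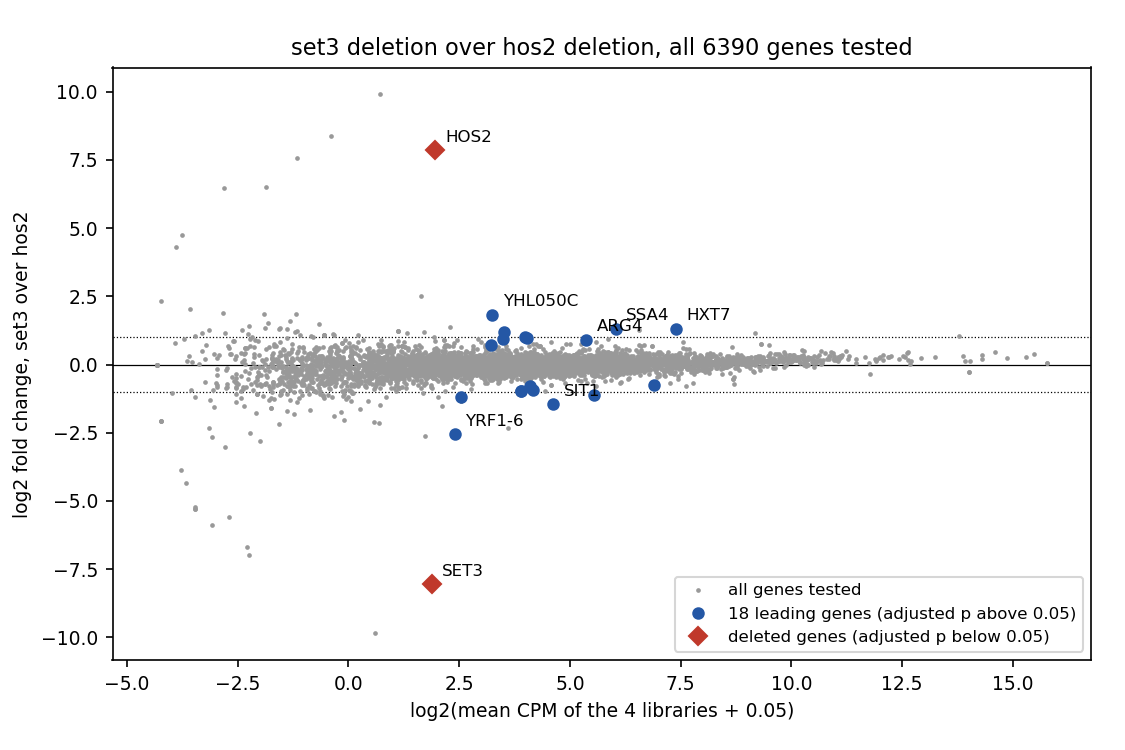
Log2 fold change of set3 over hos2 against the mean level of the 4 libraries (log2 of CPM + 0.05) for all 6390 genes tested; red diamonds are the deleted genes, blue points the 18 leading genes, and dotted lines mark 2-fold either way. SET3 at -8.04 and HOS2 at 7.86 stand alone among genes of several CPM, and points beyond 2-fold gather at the low end of the scale.

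Distances between libraries were also measured, without a model. The median absolute difference in log2 CPM over the 6388 genes was 0.246, 0.238, 0.214 and 0.167 for the 4 pairs of a set3 with a hos2 library. It was 0.248 between the 2 set3 libraries and 0.198 between the 2 hos2 libraries. The largest distance across the deletions and that within set3 thus differed by little, and their order depended on the genes and the scaling. Among genes with a mean of at least 10 CPM, set3 replicate 1 lay 0.229 and 0.215 from the hos2 libraries, against 0.213 within set3. Without genes of shared reads the largest distance across was 0.231, against 0.229 within set3, and with spike-in sizes it was 1.24, against 0.519. With TMM sizes and all 6388 genes the smallest distance of all was between replicate 2 of set3 and replicate 2 of hos2. Pearson's r of log2 CPM, across genes within a pair of libraries, was 0.977 to 0.987 across the deletions, 0.975 within set3 and 0.983 within hos2; genes are not independent replicates. Set3 libraries lay 0.287 to 0.491 from the snt1 libraries and 0.309 to 0.443 from the naive ones. Hos2 libraries lay 0.368 to 0.578 from snt1 and 0.347 to 0.514 from naive. The snt1 and naive replicates differed more among themselves, by 0.459 and 0.335.

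**Figure D2:**
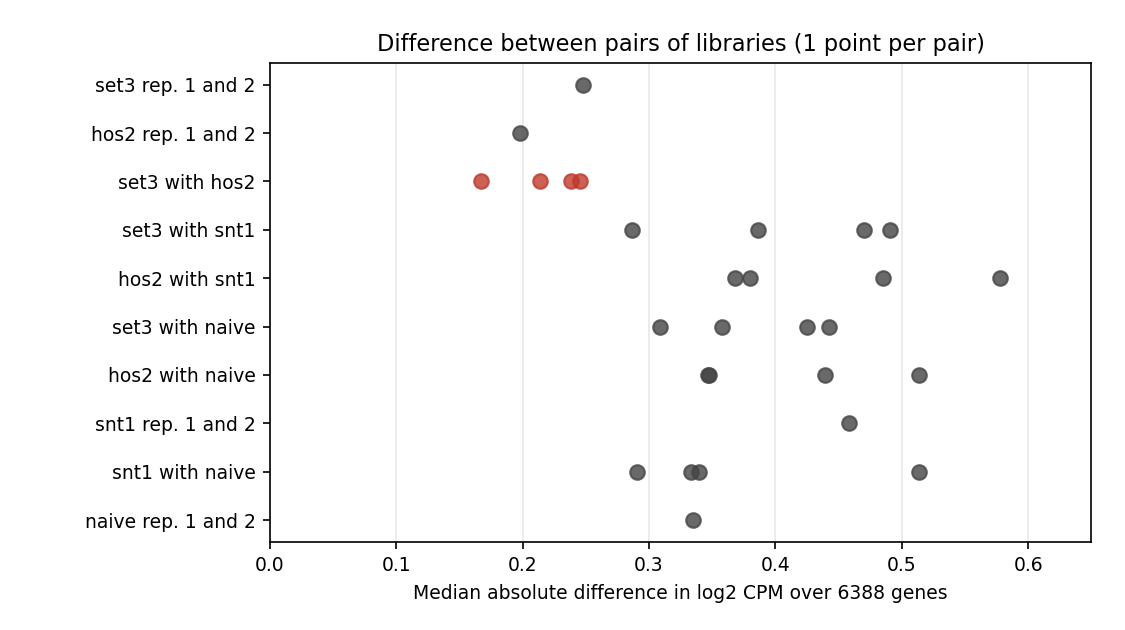
Median absolute difference in log2 CPM over 6388 genes for each pair of libraries, 1 point per pair, with set3 against hos2 pairs in red. The red points, from 0.167 to 0.246, lie beside the replicate pairs at 0.248 for set3 and 0.198 for hos2 and left of every pair with an snt1 or naive library.

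All of this is relative to the bulk of the transcriptome. The ERCC spike-in RNAs took 3.20% and 2.71% of counts in set3, against 1.87% and 2.20% in hos2. With library sizes taken from the spike-ins the median of all genes moved to -0.74, and then 0 genes had an interval within 2-fold and 0 were called. The spike-in share also differed between replicates, at 1.43% and 3.31% in naive. With spike-in sizes the median absolute difference in log2 CPM between replicates was 0.519 in set3, 0.562 in hos2 and 1.775 in naive. Whether the shift of the median exceeds this spread was not tested. Whether the set3 cells held less messenger RNA or received more spike-in per cell cannot be told apart. Ribosomal RNA took 16% and 12% of counts in set3, against 12.3% and 19.4% in hos2, so it overlapped between the groups.

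The genes that led the comparison were ranked by p after the call on HOS2 or SET3, among those with no overlap between the groups and at least 5 CPM in a library. None of these 18 passed the threshold, and the ranking by p on these libraries chose them. SIT1, the plasma membrane transporter of ferrioxamine siderophores, had 15.3 and 11.0 CPM in set3, against 37.7 and 34.8 CPM in hos2, with 64.6 and 34.9 CPM in snt1 and 9.25 and 7.63 CPM in naive. Both set3 libraries thus stood above both naive ones, and hos2 and snt1 stood higher still. The set3 over hos2 log2 fold change was -1.44 (SE 0.28, interval -2.04 to -0.84), with an unadjusted p of 0.000225 and an adjusted p of 0.478 from edgeR's quasi-likelihood test. Against naive, SIT1 rose by 2.09 (SE 0.28, adjusted p = 0.00211) in hos2 by the same edgeR fit. In set3 it had 0.65 (SE 0.28, interval 0.037 to 1.27, adjusted p = 0.248 by edgeR), off 0 without passing the adjusted threshold. The hos2 call was kept in each of 6 fits without 1 set3, hos2 or naive library.

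BAG7, a GTPase-activating protein for Rho1, had 3.64 and 3.40 CPM in set3, against 7.14 and 9.07 CPM in hos2, and a log2 fold change of -1.19 (SE 0.28). TDA6, of unknown function, had 14.2 and 10.2 CPM in set3, against 21.8 and 25.6 CPM in hos2, at -0.93 (SE 0.25). YBR238C, an uncharacterised protein, had 10.4 and 14.9 CPM in set3, against 19.9 and 23.3 CPM in hos2, at -0.80 (SE 0.22). PHO11, a secreted acid phosphatase near the end of chromosome I, had 34.9 and 23.6 CPM in set3, against 65.7 and 63.1 CPM in hos2, with 26.5 and 38.9 CPM in snt1 and 88.3 and 99.7 CPM in naive. It shares reads with its near copy PHO12, so its fold change of -1.13 (SE 0.25) may hold part of that gene's. The other lower genes were repeated sequences with shared reads. YFL002W-A and YGR161W-B, Ty frames with identical values, had 7.81 and 12.8 CPM in set3 against 19.5 and 19.3 CPM in hos2, and the Ty frame YBL005W-B was at -0.77 (SE 0.21). The Y′ helicase frame YRF1-6 had 1.72 and 1.13 CPM in set3, against 10.6 and 7.41 CPM in hos2, at -2.55 (SE 0.61), and in snt1 and naive it ranged from 5.34 to 45.8 CPM.

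On the higher side, ARG4, argininosuccinate lyase of arginine synthesis, had 56.5 and 51.4 CPM in set3, against 29.5 and 28.1 CPM in hos2, with 35.8 and 33.8 CPM in snt1 and 45.0 and 54.1 CPM in naive. The set3 libraries were at the naive level and the hos2 libraries below it, and the log2 fold change was 0.91 (SE 0.19, unadjusted p = 0.000421, adjusted p = 0.538 by edgeR). SSA4, the stress-inducible cytosolic Hsp70, had 85.0 and 101 CPM in set3, against 30.1 and 44.9 CPM in hos2, with 96.3 and 125 CPM in snt1 and 163 and 201 CPM in naive. Its log2 fold change was 1.32 (SE 0.32). GAP1, the general amino acid permease, had 16.4 and 14.97 CPM in set3, against 5.44 and 8.40 CPM in hos2, at 1.21 (SE 0.30), and MEP2, the high-affinity ammonium permease, had 14.3 and 15.1 CPM in set3, against 6.93 and 8.40 CPM in hos2, at 0.95 (SE 0.29). Both permeases serve nitrogen uptake when good nitrogen sources run low. MTH1, which holds hexose transporter genes repressed until glucose is sensed, had 11.8 and 11.0 CPM in set3, against 6.71 and 7.31 CPM in hos2, at 0.71 (SE 0.21).

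HXT7, a high-affinity hexose transporter nearly identical to HXT6, had 239 and 238 CPM in set3, against 76.2 and 117 CPM in hos2, with 952 and 631 CPM in snt1 and 1269 and 1516 CPM in naive. Its log2 fold change was 1.31 (SE 0.33) and its reads are shared. RGI1, a protein of respiratory growth, had 23.9 and 18.2 CPM in set3, against 9.08 and 12.1 CPM in hos2, at 1.01 (SE 0.28), and YER067C-A, whose reads are shared too, was at 0.96 (SE 0.27). YHL050C, an uncharacterised frame near the left end of chromosome VIII, had 11.0 and 18.6 CPM in set3, against 3.93 and 4.30 CPM in hos2. Its log2 fold change was 1.82 (SE 0.36), and it shares reads with other targets. Among these genes, both deletions stood below naive for SSA4, HXT7, RGI1, YER067C-A, MTH1 and PHO11. For the first 5 hos2 lay farther from naive, and for PHO11 set3 did.

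**Figure D3:**
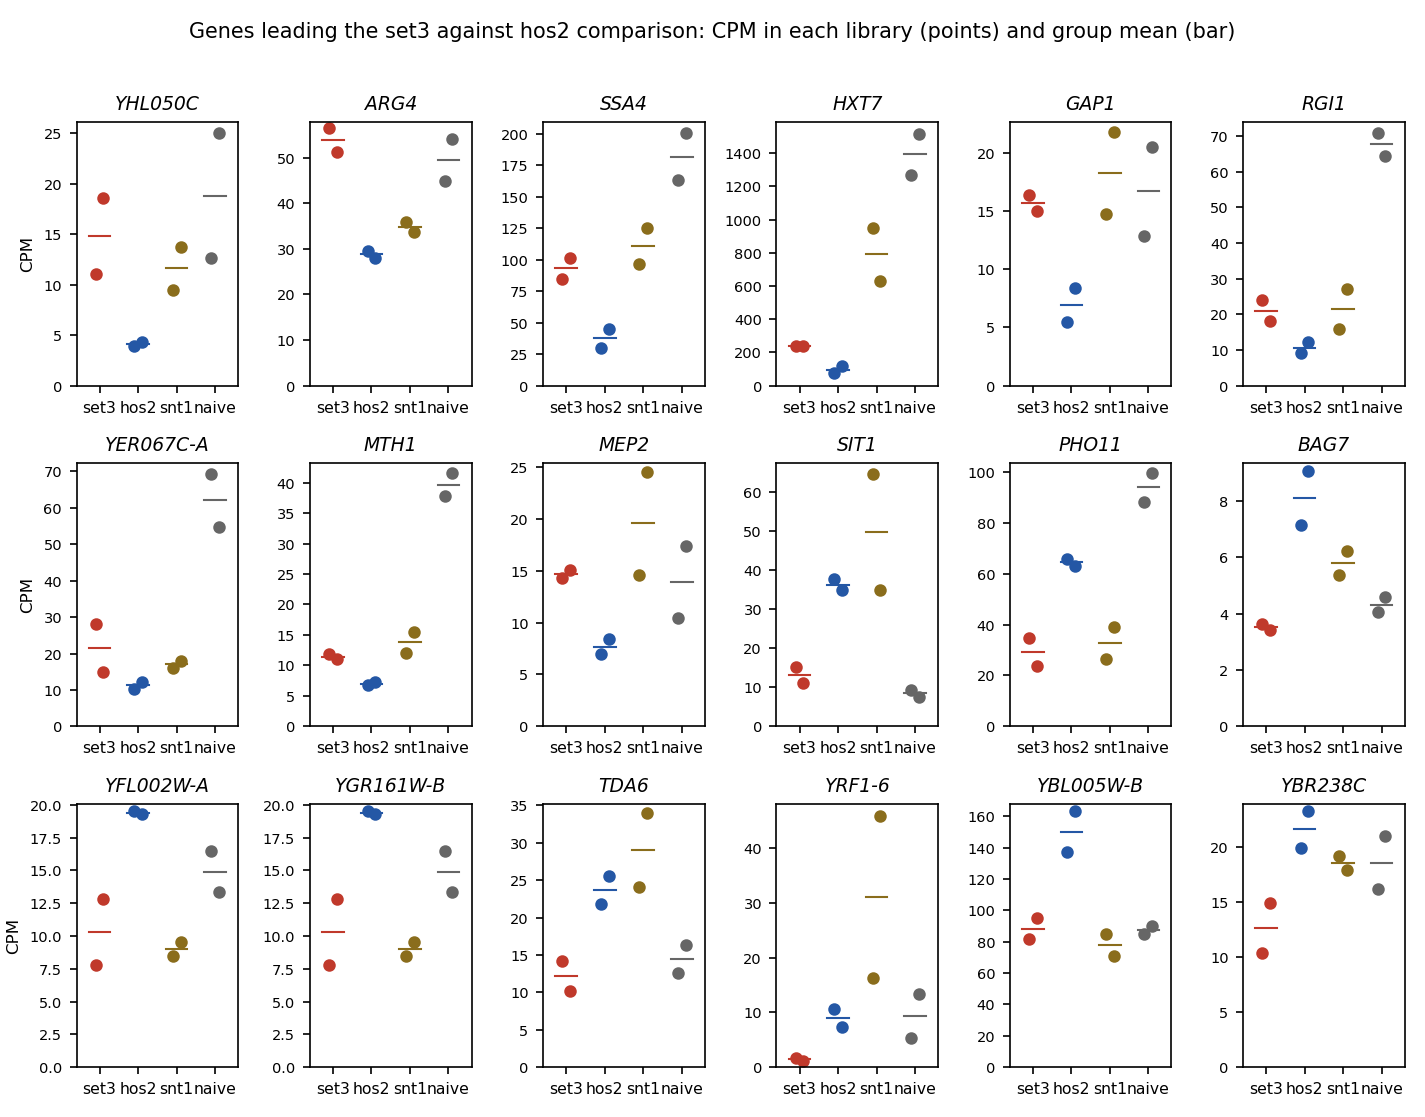
CPM in each library (points) and group mean (bar) for the 18 leading genes, groups from left to right set3, hos2, snt1 and naive, each panel with its own linear axis from 0. The set3 and hos2 points do not overlap in any panel, which the choice of genes fixed, and SIT1, at 15.3 and 11.0 CPM in set3 against 37.7 and 34.8 CPM in hos2, has the smallest p.

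Set against naive diploids, the deletions differed in how many genes were called. In set3, 159 genes were called (2.49% of those tested), 37 higher (0.579%) and 122 lower (1.91%), and in hos2, 488 (7.64%), 189 higher (2.96%) and 299 lower (4.68%). These comparisons share the naive libraries, and the difference between the counts is no measure of a difference between the deletions, of which the direct test called 0 genes. The counts depended strongly on single libraries. For set3 the count was 6 without set3 replicate 1, 8 without set3 replicate 2, 82 without hos2 replicate 1, 75 without hos2 replicate 2 and, with a naive library left out after the data were seen, 53 (replicate 1) and 31 (replicate 2). For hos2 it was 276 without set3 replicate 1, 272 without set3 replicate 2, 25 without hos2 replicate 1, 139 without hos2 replicate 2, and 354 and 57 with naive replicate 1 or 2 left out.

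The genes called in the same direction in both deletions, ranked by their larger p against naive, were led by 12 that all fell. Choosing them by calls in both deletions on these same libraries favours small direct set3 over hos2 differences. The direct differences below describe these genes and are no test of likeness. IMD2, an inducible IMP dehydrogenase of guanine nucleotide synthesis that shares reads with its relatives, had 46.1 and 48.9 CPM in set3, against 45.5 and 47.9 CPM in hos2, with 41.6 and 40.2 CPM in snt1 and 209 and 261 CPM in naive. It fell by 2.31 (SE 0.21, adjusted p = 0.000484) in set3 and fell by 2.33 (SE 0.21, adjusted p = 0.000179) in hos2 against naive, both by edgeR. The direct difference was 0.024, with an interval from -0.42 to 0.47. The 4 deletion libraries were thus within a few CPM of each other and all far under both naive libraries.

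Genes of NAD synthesis and uptake among the 12 were also below naive in both deletions. BNA2, the dioxygenase that opens the tryptophan route to NAD, had 0.89 and 1.02 CPM in set3, against 1.00 and 0.57 CPM in hos2, with 7.75 and 12.7 CPM in naive, and a direct difference of 0.18 (interval -0.79 to 1.15). BNA4, kynurenine 3-monooxygenase, had 8.39 and 7.37 CPM in set3, against 8.98 and 9.85 CPM in hos2, with 32.2 and 28.6 CPM in naive, and a direct difference of -0.24 (interval -0.73 to 0.25). BNA5, kynureninase, whose reads are shared in part, had 17.02 and 15.7 CPM in set3, against 19.5 and 20.9 CPM in hos2, with 80.1 and 112 CPM in naive. NRT1, the nicotinamide riboside transporter, had 10.3 and 11.7 CPM in set3, against 11.8 and 12.3 CPM in hos2, with 31.3 and 45.6 CPM in naive. Of the 9 genes of the tryptophan route, 6 fell in set3 and 6 fell in hos2 against naive, beside 1.91% of all genes in set3 and 4.68% in hos2, with list medians of -1.33 and -1.62. In the direct comparison 0 of the 9 were called, 7 intervals lay within 2-fold and 6 values were negative. Set3 lay below hos2 without overlap for 4 and above for 1, beside 17.8% and 14.7% of all genes. BNA4, BNA5 and NRT1 each had set3 below. The list median was -0.10, which became -0.16 without hos2 replicate 2 and -0.00091 without hos2 replicate 1. BNA2, BNA4 and BNA5 were also among the 28 genes that fell or rose in snt1 against naive.

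ODC1, a mitochondrial carrier of oxodicarboxylates, had 5.46 and 4.54 CPM in set3, against 5.13 and 5.55 CPM in hos2, with 17.9 and 26.4 CPM in naive, and a direct difference of -0.063 (interval -0.57 to 0.45). COQ21 had 4.90 and 5.56 CPM in set3, against 3.50 and 3.89 CPM in hos2, with 17.4 and 19.3 CPM in naive and 15.8 and 23.0 CPM in snt1. YKR075C, an uncharacterised gene whose promoter window is shown above, had 6.96 and 3.52 CPM in set3, against 2.95 and 4.35 CPM in hos2, with 43.1 and 35.4 CPM in naive. It fell by 2.82 (SE 0.30, adjusted p = 0.00132) in set3 and fell by 3.46 (SE 0.31, adjusted p = 0.000179) in hos2 by edgeR, and the direct difference was 0.64 (interval -0.011 to 1.298). HXT4, a hexose transporter with shared reads, had 84.9 and 67.4 CPM in set3, against 39.0 and 41.6 CPM in hos2, with 458 and 510 CPM in naive. Like HXT7 and MTH1, it fell in both deletions, by 2.67 in set3 and fell by 3.59 in hos2 on the log2 scale, and its direct difference of 0.92 (interval 0.27 to 1.58) lay off 0 without passing the adjusted threshold. The last of the 12, YFR052C-A, shares reads and had a direct difference of 0.51 (SE 0.31). In the 6 fits without 1 set3, hos2 or naive library, IMD2, YKR075C, ODC1 and BNA5 were called in every fit for both deletions. The set3 calls of MTH1, HXT4, COQ21, BNA2, BNA4 and HXT7 were lost without set3 replicate 1 and without set3 replicate 2, those of NRT1 and YFR052C-A without set3 replicate 1, and the hos2 call of BNA4 without hos2 replicate 1.

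**Figure D4:**
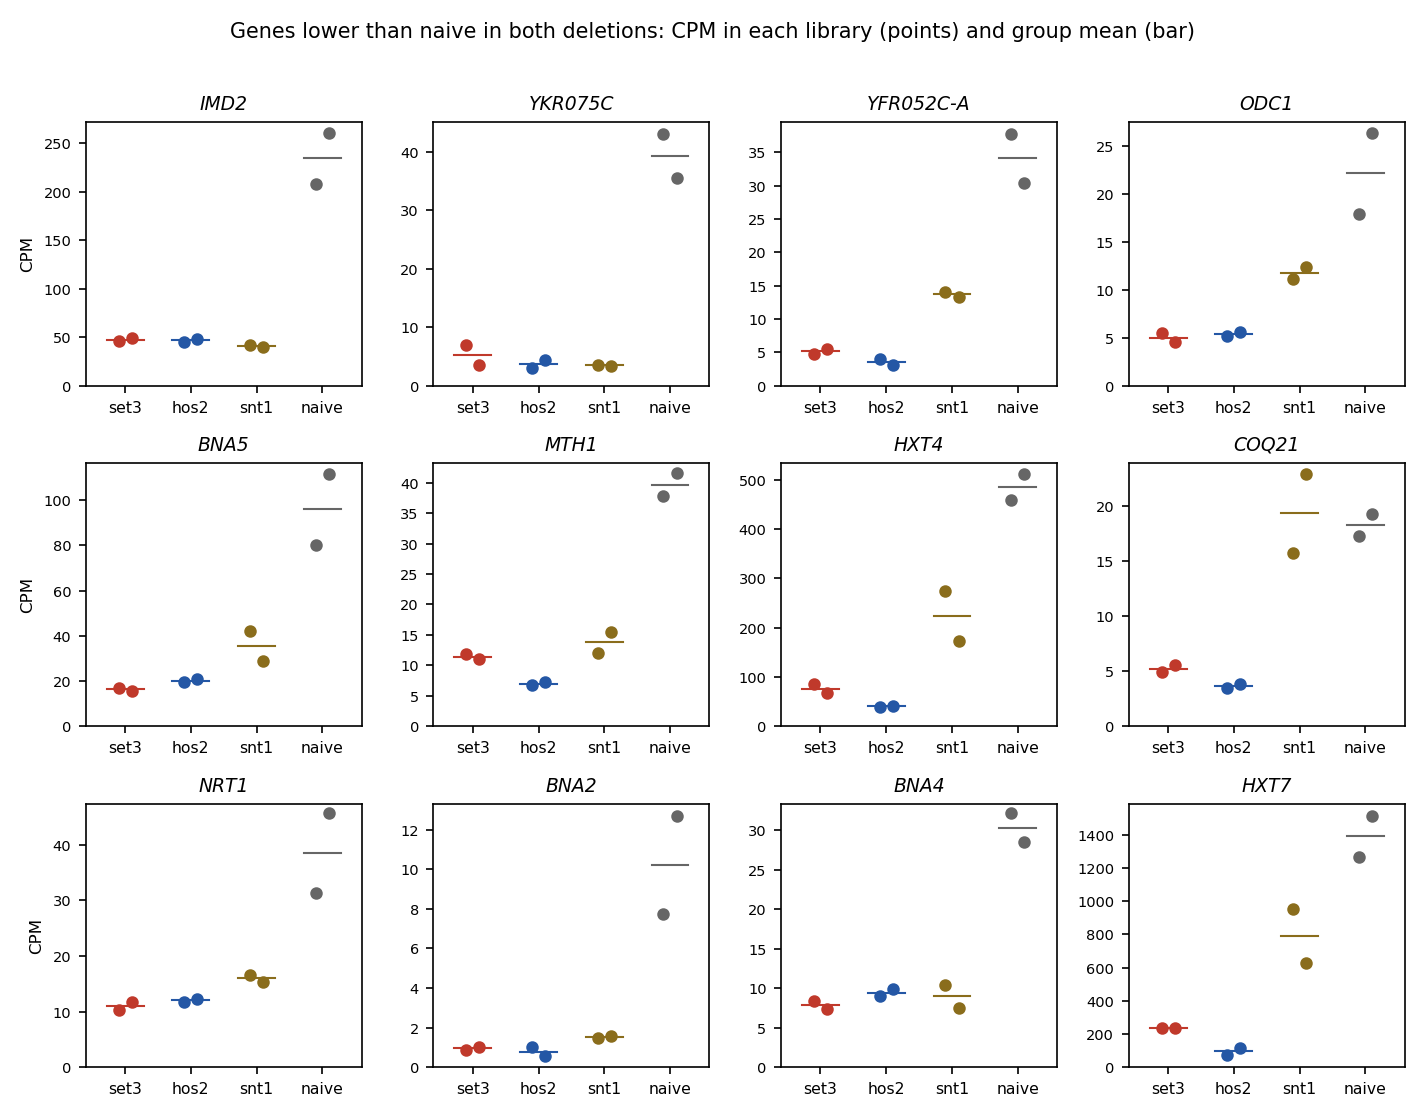
CPM in each library (points) and group mean (bar) for the 12 genes called in both deletions against naive, groups from left to right set3, hos2, snt1 and naive, each panel with its own linear axis from 0. IMD2, at 46.1 and 48.9 CPM in set3 and 45.5 and 47.9 CPM in hos2, lies level in the deletions, while HXT4 and HXT7 are lower in hos2 than in set3.

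The snt1 deletion offered a set of genes chosen without the set3 and hos2 libraries, apart from their share in the estimate of the spread. Of 6387 genes, 28 (0.438%) were called in snt1 against naive, 24 lower (0.376%) and 4 higher (0.0626%). In set3 against hos2, 0 of these 28 were called, 17 had an interval within 2-fold, and the median log2 fold change was -0.045, in a range from -1.44 (SIT1) to 1.01 (RGI1). At an unadjusted p under 0.05 there were 9 of the 28, beside 1.75% of all genes. PHO11, SIT1, HXT1, FET3 and the Ty frame YNL284C-B had lower values in set3. RGI1, YER067C-A, MTH1 and MPF1 had higher ones, and RGI1 and YER067C-A may not be separate signals. IMD2, BNA5, NRT1, the repressor genes MIG2 and MIG3 and the biotin synthase gene BIO2 were among those bounded within 2-fold. Direct tests of snt1 called 10 genes (0.157%) against set3, 8 higher in snt1 (0.125%) and 2 lower (0.0313%), and 200 (3.13%) against hos2, 141 higher in snt1 (2.21%) and 59 lower (0.924%). Whether those counts differ was not tested.

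The gene groups were described by counts and medians, since edgeR called 0 of the 1328 distinct list genes tested, 32 of which had an unadjusted p under 0.05, and DESeq2 called 5. For reference, over all 6388 genes the median was -0.0062. Both set3 libraries lay above both hos2 libraries for 937 (14.7%) and below them for 1135 (17.8%). An interval within 2-fold was found for 4523 (70.8%), a share that was 90.2% among genes of at least 10 CPM in the 4 libraries. Amino acid synthesis genes under Gcn4, the activator of the starvation response, leaned higher. Of 42 tested, 38 had positive values, 28 had no overlap with set3 above and 0 with set3 below, and the median was 0.20. HIS4, of histidine synthesis, had 520 and 469 CPM in set3, against 282 and 346 CPM in hos2, at 0.66 (SE 0.26). ARG1, argininosuccinate synthetase, had 134 and 106 CPM in set3, against 69.0 and 81.8 CPM in hos2, at 0.67 (SE 0.32), and HIS7 was at 0.44 (SE 0.24). The windows of ARG4, HIS4, ARG1 and HIS7 each hold TGACTC. Against naive, 0 of the 42 fell in set3 and 4 fell in hos2, beside 1.91% of all genes in set3 and 4.68% in hos2. Taken relative to the median of all genes where a scaling moved that median, as spike-in sizes did, the list median was 0.17 to 0.23 under the scalings tried and in the fits without 1 set3 or hos2 library.

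Other groups leaned the same way by small amounts. All 21 heat shock chaperone genes had positive values, with a median of 0.24, and 11 had set3 above hos2 without overlap. Without hos2 replicate 1 the median was 0.18, and without hos2 replicate 2 it was 0.46. SSA4 led them, followed by BTN2, which retrieves misfolded proteins, at 75.5 and 87.4 CPM in set3, against 53.4 and 53.2 CPM in hos2 (0.61, SE 0.33). For MDJ1, a mitochondrial DnaJ chaperone, and HSP82, an Hsp90, the values were 0.46 (SE 0.28) and 0.39 (SE 0.24). Of 23 genes of glycolysis and fermentation, 20 were positive and 12 had set3 above without overlap, with a median of 0.27. The median was 0.16 without set3 replicate 1, 0.14 without hos2 replicate 1 and 0.47 without hos2 replicate 2. ADH5, an alcohol dehydrogenase, had 70.3 and 57.4 CPM in set3, against 41.6 and 38.9 CPM in hos2, at 0.67 (SE 0.25). Against naive, 1 of these 23 fell in set3 and 7 fell in hos2, beside 1.91% of all genes in set3 and 4.68% in hos2. Of 138 cytoplasmic ribosomal protein genes, 127 were positive, 118 were bounded within 2-fold and the median was 0.15, but the median was -0.092 without set3 replicate 1 and 0.36 without set3 replicate 2. Of these 138, 114 share reads with a paralog.

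The medians of glycogen and stress genes depended on single libraries. Of 34 general stress genes, 30 were positive with a median of 0.22, and only 4 had set3 above without overlap. The median was 0.080 without set3 replicate 1, 0.34 without set3 replicate 2, -0.070 without hos2 replicate 1 and 0.64 without hos2 replicate 2. GPH1, glycogen phosphorylase, had 54.3 and 40.2 CPM in set3, against 19.99 and 36.7 CPM in hos2, with 189 and 192 CPM in naive, at 0.75 (SE 0.28). GLG1, a glycogenin that primes glycogen chains, had 25.9 and 22.1 CPM in set3, against 14.1 and 15.96 CPM in hos2, at 0.68 (SE 0.22). Of 21 glycogen and trehalose genes 13 were positive and the median was 0.055, and it was 0.017 without set3 replicate 1, 0.14 without set3 replicate 2, -0.078 without hos2 replicate 1 and 0.45 without hos2 replicate 2. Against naive, 5 general stress genes fell in set3 and 14 in hos2, and 4 glycogen and trehalose genes fell in set3 and 7 in hos2, beside 1.91% of all genes in set3 and 4.68% in hos2.

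Ribosome assembly genes had mostly negative values. Of 50 ribosome biogenesis genes, 40 had negative values, 17 had set3 below hos2 without overlap and 1 above, and the median was -0.16, with 48 of 50 bounded within 2-fold. The median was -0.049 without set3 replicate 1, -0.31 without set3 replicate 2 and -0.055 without hos2 replicate 1. UTP10, a large protein of the small-subunit processome, had 41.1 and 58.2 CPM in set3, against 76.1 and 69.7 CPM in hos2, with 33.6 and 28.04 CPM in naive, at -0.56 (SE 0.22). UTP20, of the same machine, had 40.5 and 48.2 CPM in set3, against 64.7 and 57.4 CPM in hos2, with 22.8 and 17.1 CPM in naive, at -0.47 (SE 0.21). Against naive, 8 of the 50 rose in set3 and 26 rose in hos2, beside 0.579% of all genes in set3 and 2.96% in hos2, with list medians of 0.68 and 0.82. RNA polymerase I subunit genes, which transcribe the ribosomal RNA precursor, had negative values in 8 of 9 and a median of -0.19, which was -0.077 without hos2 replicate 1. RPA49, a subunit of the enzyme, had 50.9 and 53.3 CPM in set3, against 65.9 and 59.96 CPM in hos2, with 30.6 and 32.01 CPM in naive, at -0.27 (SE 0.18).

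Phosphate and iron genes were lower in set3 in part. Of 18 phosphate starvation genes, 16 had negative values, 10 had set3 below without overlap and 1 above, and the median was -0.26. After PHO11 came PHO81, the inhibitor of the Pho80-Pho85 kinase, with 23.0 and 26.9 CPM in set3, against 33.3 and 31.2 CPM in hos2 (-0.38, SE 0.18). VTC3, of vacuolar polyphosphate synthesis, had 143 and 143 CPM in set3, against 193 and 172 CPM in hos2 (-0.35, SE 0.21). Of 28 genes of the iron regulon, 21 had negative values and 12 had set3 below without overlap, with a median of -0.096. The median was -0.22 without set3 replicate 2, -0.062 without hos2 replicate 1, -0.24 without hos2 replicate 2 and -0.21 among genes with a mean of at least 10 CPM. FET3, the multicopper oxidase of high-affinity iron uptake, had 147 and 140 CPM in set3, against 219 and 282 CPM in hos2, with 760 and 529 CPM in snt1 and 111 and 129 CPM in naive. Its direct log2 fold change was -0.80 (SE 0.25). TIS11, which destabilises messenger RNAs of iron-using proteins, had 5.74 and 4.54 CPM in set3, against 9.34 and 7.77 CPM in hos2, at -0.71 (SE 0.25). FIT3 lay on the opposite side, so the iron genes did not share a direction. The windows of SIT1, FET3 and TIS11 hold TGCACCC.

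Hexose transporters split. Of 18 tested, 13 with shared reads, 5 fell in set3 and 7 fell in hos2 against naive, beside 1.91% of all genes in set3 and 4.68% in hos2, while in the direct comparison the median was 0.079 and 7 intervals were within 2-fold. The high-affinity HXT7 and HXT4 had positive values, given above. HXT1, the low-affinity transporter used at high glucose, had 55.2 and 53.2 CPM in set3, against 88.1 and 84.7 CPM in hos2, with 134 and 194 CPM in naive, at -0.67 (SE 0.25). The list median was 0.19 without set3 replicate 1, -0.081 without set3 replicate 2, 0.023 without hos2 replicate 1 and 0.15 without hos2 replicate 2. Several groups were mostly bounded, beside 70.8% of all genes and 90.2% of those of at least 10 CPM in the 4 libraries. Whether they exceed the share for genes of like level was not tested. All 25 ergosterol synthesis genes and all 11 histone genes had intervals within 2-fold, as had 31 of 33 proteasome genes, 50 of 54 mitochondrial ribosomal protein genes and 7 of 8 COMPASS genes. Of 16 genes for other histone deacetylases and their partners, 10 were bounded, and HDA1, a class II deacetylase, had 6.41 and 8.51 CPM in set3, against 11.3 and 10.3 CPM in hos2, at -0.57 (SE 0.20).

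**Figure D5:**
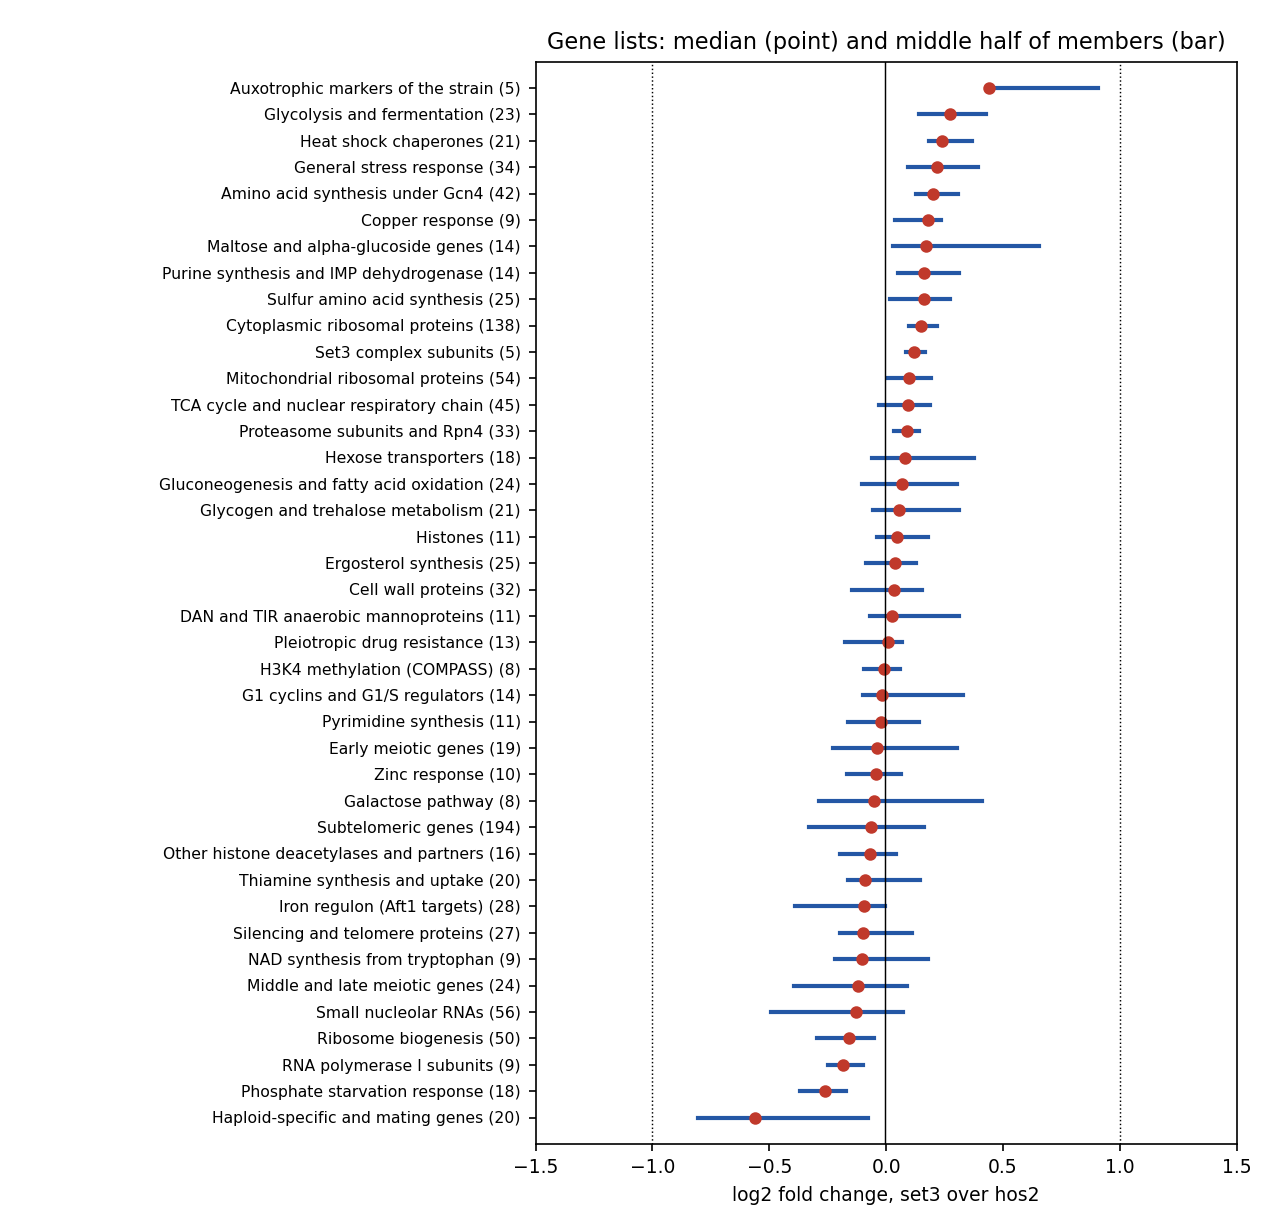
Median (point) and interquartile range (bar) of log2 fold change of set3 over hos2 for each gene list, with the number tested in brackets, ordered by median; dotted lines mark 2-fold either way. All medians lie within 2-fold, from 0.44 for the auxotrophic markers to -0.56 for haploid-specific genes, and most lie within 0.25 of 0.

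Metabolic groups not yet named also had small medians. Of 25 sulfur amino acid genes, 20 were positive with a median of 0.16, and MET6, methionine synthase, had 265 and 209 CPM in set3, against 139 and 181 CPM in hos2, at 0.57 (SE 0.32). Of 14 purine synthesis genes, 12 were positive and 12 were bounded within 2-fold, with a median of 0.16, which was 0.11 without set3 replicate 1 and 0.083 without hos2 replicate 1. Of 45 genes of the TCA cycle and respiratory chain, 36 were bounded and the median was 0.092, while against naive 5 fell in set3 and 8 fell in hos2, beside 1.91% of all genes in set3 and 4.68% in hos2. Without set3 replicate 1 the direct median was -0.018. NDE1, the external NADH dehydrogenase of mitochondria, had 125 and 116 CPM in set3, against 152 and 170 CPM in hos2, at -0.42 (SE 0.23).

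Of 14 maltose and alpha-glucoside genes, 10 with shared reads, 3 fell in set3 and 5 fell in hos2 against naive, beside 1.91% of all genes in set3 and 4.68% in hos2. The direct median was 0.17, and it was 0.10 without set3 replicate 1 and 0.28 without hos2 replicate 2. ZNF1, a zinc cluster regulator, had 1.67 and 2.27 CPM in set3, against 1.16 and 1.04 CPM in hos2, with 7.75 and 8.10 CPM in naive. Of 32 cell wall genes 28 were bounded, and DSE4, a daughter-cell glucanase, had 114 and 130 CPM in set3, against 158.5 and 159 CPM in hos2, at -0.38 (SE 0.21). Of 13 drug resistance genes 12 were bounded, and the smallest p was that of PDR12, an exporter of weak acids, with 26.7 and 38.0 CPM in set3, against 44.5 and 57.2 CPM in hos2, at -0.66 (SE 0.24). Of 27 silencing and telomere protein genes 19 were bounded, with a median of -0.098 (-0.024 without set3 replicate 1 and -0.052 without hos2 replicate 2), and ASF1, a histone chaperone, had 13.0 and 18.7 CPM in set3, against 10.9 and 11.1 CPM in hos2, at 0.50 (SE 0.27).

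Genes near chromosome ends, which bear on the study's interest in subtelomeric expression, had values on both sides. Of 194 tested within 20 kb of an end, 82 had positive and 111 negative values, the median was -0.067 (-0.10 without set3 replicate 2, -0.016 without hos2 replicate 1 and -0.0063 without hos2 replicate 2), and 70 (36.1%) had intervals within 2-fold, beside 70.8% of all genes. They include YHL050C at 1.82 and YRF1-6 at -2.55, in a range from -5.595 to 2.509, and 117 genes with shared reads. Of the 194, 30 had set3 above hos2 without overlap and 46 below, beside 14.7% and 17.8% of all genes. Of 83 genes within 10 kb, 60 of them with shared reads, 29 had positive and 53 negative values, and the median was -0.16. In that set 8 had set3 above without overlap and 25 below, beside the same shares of all genes. Repeated genes can enter more than once, as YRF1-3 and YRF1-7 with identical values. At 40 kb the median was -0.032 over 462 genes. Sporulation genes, which the complex is known to restrain, were at low levels. Of 19 early meiotic genes 0 were called and 3 were bounded within 2-fold, with a median of -0.039 (0.025 without set3 replicate 1, -0.10 without set3 replicate 2, 0.11 without hos2 replicate 1 and -0.14 without hos2 replicate 2). Of 24 middle and late ones 0 were called and 6 were bounded, with a median of -0.12 (-0.18 without set3 replicate 2, -0.030 without hos2 replicate 1 and -0.23 without hos2 replicate 2). REC8, the meiotic cohesin subunit, had 0.42 and 0.68 CPM in set3, against 0.20 and 0.10 CPM in hos2, with 0.56 and 0.70 CPM in naive.

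Markers of cell type and genotype were read in every library. Diploids of both mating types repress haploid-specific genes, and the 20 such genes summed to 42.9 and 42.3 CPM in set3, against 65.6 and 45.8 CPM in hos2, with 41.0 and 43.0 CPM in snt1 and 59.6 and 54.0 CPM in naive. MF(ALPHA)1 was at 0 in set3 replicate 2 and no other member was at 0 in these libraries. In set3 against hos2, 0 of the 20 were called, 18 had negative values and the median was -0.56, but hos2 replicate 1 carried much of it, and without that library the median was -0.11. STE2, the alpha-factor receptor, had 2.40 and 1.93 CPM in set3, against 9.23 and 3.42 CPM in hos2, and MFA1, the a-factor gene, had 0.49 and 0.11 CPM in set3, against 2.31 and 0.62 CPM in hos2. BAR1, the protease that degrades alpha-factor, had 1.88 and 2.38 CPM in set3, against 6.004 and 2.38 CPM in hos2. STE2, MFA1, BAR1 and STE6 are genes of the a mating type. Of genes of the alpha type, MF(ALPHA)1 and MF(ALPHA)2, the alpha-factor genes, had log2 fold changes of 1.31 (SE 1.07) and 0.46 (SE 0.55), MF(ALPHA)2 with set3 above hos2 without overlap, while SAG1, the alpha-agglutinin, and STE3, the a-factor receptor, were at -0.047 (SE 0.22) and -0.083 (SE 0.78). Naive replicate 1 also stood above naive replicate 2 for STE2, at 4.57 and 1.48 CPM, and for MFA1, at 1.501 and 0.16 CPM. The part of what set hos2 replicate 1 apart at the a-type genes in the other differences was not tested. The markers HIS3, LEU2, URA3, LYS2 and MET17 had positive values in all 5, from 0.16 to 1.33, and 0 were called. Their median of 0.44 was 0.22 without set3 replicate 1 and 0.72 without set3 replicate 2. URA3 was near 0 throughout, at 0.60 and 0.23 CPM in set3 and 0.24 and 0.10 CPM in hos2, and LEU2 was low, at 1.06 and 1.25 CPM in set3 and 0.36 and 0.93 CPM in hos2.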

How the data were processed

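Messenger RNA of 10 libraries was measured by paired-end sequencing of spike-in-bearing, poly(A)-primed cDNA, per the labels' protocols; strand is not stated, so reads of overlapping genes may not be told apart. The authors' deposited values are estimated counts and TPM per target, per the file headers, made with kallisto 0.44 on build R64, per the submitters' processing notes. Estimated counts are not normalized and need not be whole where targets share reads. TPM are scaled to transcripts-per-million by the authors and served only in an alternative.

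Estimated counts were rounded, ERCC targets set aside and low genes removed with filterByExpr over the 5 groups. edgeR 4.0.16 in R 4.3.3 fitted all 10 libraries with TMM sizes, 1 coefficient per group and a robust quasi-likelihood, two-sided, with Benjamini-Hochberg adjustment at 0.05. SE is the size of the log2 fold change over the square root of F, and 95% intervals use the t quantile at the fit's degrees of freedom. The script was tested on simulated data. Positions come from the R64 annotation, which held 6048 of the targets. No set test was run. Members and lists were chosen with earlier results of these data known, and 6 of 733 list names matched no target. Genes named are the deleted genes, subunits, markers and neighbours, the 10 smallest p per direction without overlap and with at least 5 CPM in 1 of the 4 libraries, up to 4 per list by p, and the 12 genes called alike in both deletions with the smallest larger p. Each ranking could be cut short from its end. Alternatives were RLE sizes, spike-in sizes, DESeq2 1.42.0, limma-trend 3.58.1 on log2(TPM + 1), no filter, a mean of 10 CPM, fits of 4 or 8 libraries, a replicate block, leaving out genes of shared reads, a fold over 2, an interval of 1.5-fold, other subtelomeric distances (10 or 40 kb), and each of the set3, hos2 and naive libraries omitted in turn, the naive ones added after seeing the data.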

Additional observations from a re-analysis of the deposited data

How the results depend on the processing

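In set3 against hos2 the count of calls apart from SET3 and HOS2 was 0 in edgeR, and it was 5 with DESeq2 (3 higher, 2 lower), 3 in the fit of the 4 libraries (1 higher, 2 lower) and 3 with the replicate block (2 higher, 1 lower: GAP1, YHL050C and SIT1). It was 0 under every other alternative, each leave-one-out fit included. Of list genes, 5, 3 and 2 were called in those 3 settings. Same-numbered set3 and hos2 libraries deviated together with r = 0.12, in a range from -0.0727 to 0.346 (naive with snt1) over the 10 pairs of groups. Whether the replicate numbers mark a shared batch was not tested. The interval lay within 2-fold for 0 genes with spike-in sizes, under which the median gene stood at -0.74, and for 1332 within 1.5-fold. With limma-trend the median was -0.19, and SET3 had -1.73 from it on log2(TPM + 1) and lost its call (adjusted p = 0.0653). The mean distance across the deletions over that within them was 0.970, and 1.37 with spike-in sizes. Against naive, the set3 count of 159 was 2 with spike-in sizes, 398 with DESeq2, 49 with limma-trend, 91 with 8 libraries and 402 with the replicate block, and 6 to 82 without 1 library. The hos2 count of 488 was 4, 746, 141, 232 and 847 in the same order, and 25 to 354 without 1 library. The fits without a naive library were added after seeing the data. Values of single genes and lists are relative to the median of all genes under spike-in sizes and limma-trend. On that scale SNO3, a low target with shared reads at -5.22, had 0.021 with limma-trend and -5.86 to 0 without 1 library. Of the 182 named genes, 19 others, with intervals holding 0, had on that scale 24 values of the other sign or 0. The causes were not tested. Fits without 1 library also lose replication and filter genes anew. The shallowest library, set3 replicate 2 with 8327735 estimated counts, limits what can be said of low genes.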
